A study of Homo sapiens with 4 samples.

Results

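ACTB and ACTG1 encode beta-actin and gamma-actin, the cytoplasmic actins, and their transcripts were examined in an iCLIP experiment on the tumour suppressor PDCD4, an assay that maps contacts of a protein on RNA to single nucleotides by UV cross-linking. Sites were taken where the gene label in the deposited lists held exactly ACTB or ACTG1. Of 14416 genes with a listed crosslink site, these 2 held 401 of the 158922 sites immunoprecipitated with PDCD4 antibody and 109 of the 111361 sites in the IgG control. The genes were chosen with the number and the score of their PDCD4 sites in these same lists known, so their PDCD4 levels are described and not tested.

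The cells were MCF10A, an established non-transformed breast epithelial line labelled wild-type (WT), which is a single line grown in medium with horse serum, epidermal growth factor, insulin, hydrocortisone and cholera toxin. No PDCD4 knockdown or other treatment separated the groups, which differed in the antibody alone: 2 replicates with PDCD4 antibody and 2 with IgG. Each group was deposited as 1 list in which the replicates are pooled. There is therefore no spread between replicates and no p-value, and every interval below is a 95% interval that covers counting error only. A listed site is 1 nt wide, and its score is the raw number of cDNAs that ended there. The PDCD4 list summed to 409308 cDNAs and the IgG list to 276139. Of the markers of basal breast epithelium (KRT5, KRT14, KRT17, TP63, ITGB4 and CDH3), 6 of 6 had a PDCD4 site and 5 of 6 an IgG site, and KRT14 was low, with 3 PDCD4 cDNAs and no IgG cDNA. Markers of leukocytes and endothelium (3 genes each) had no PDCD4 site and 2 IgG cDNAs, in CD14, and the 3 fibroblast markers had 2 cDNAs with each antibody, all in DCN.

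Actin monomers assemble into the filaments that shape the cell cortex, stress fibres and protrusions, and anchor cell junctions and adhesions. Beta-actin and gamma-actin are almost the same protein, made in most cells from separate genes whose mRNAs differ mainly in synonymous codons and in their untranslated regions. The ACTB 3′UTR carries the zipcode, an element through which the protein IGF2BP1 (ZBP1) is known to localise beta-actin mRNA to the cell edge. Both genes are regulated by serum response factor (SRF) and its actin-sensing coactivators. PDCD4 is best known as a binding partner and inhibitor of the translation factor eIF4A.

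On GRCh38 (hg38), ACTB (ENSG00000075624) lies on the minus strand at chr7:5527148-5530601, and ACTG1 (ENSG00000184009) on the minus strand at chr17:81509971-81512799. Their representative transcripts (ENST00000646664.1 and ENST00000573283.7) each have 6 exons and the same coding length of 1128 nt, stop codon included. The ACTB transcript has a 5′UTR of 84 nt and a 3′UTR of 600 nt, and the ACTG1 transcript a 5′UTR of 72 nt and a 3′UTR of 719 nt. Each site described below lay on the strand and chromosome of its gene, and none carried a second gene label.

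The sequences around the sites with the highest PDCD4 scores are shown first, because they are the positions that held the most cDNAs. Each runs 5′ to 3′ on the transcribed strand with T for U, and the capital marks the crosslink site. The highest ACTB scores were 18 in the coding part of exon 3 and 18 and 15 in the 3′UTR, in this order:
ACTB exon 3, chr7:5529292-5529321: agtaccccatcgagCacggcatcgtcacca
ACTB 3′UTR, chr7:5527559-5527588: ggtgacagcagtcgGttggagcgagcatcc
ACTB 3′UTR, chr7:5527257-5527286: ccccccttccccctTttttgtcccccaact
The last of these sites lies in a run of pyrimidines and was the last PDCD4 site of the ACTB transcript, 124 nt before its annotated end.

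In ACTG1 the highest PDCD4 scores were 9 in exon 5 and 8, 7 and 7 in exon 4, all in coding sequence. A further site with a score of 7 lay at nucleotide 2 of exon 5, next to the splice junction. The exon 5 site with a score of 9 and the exon 4 sites with scores of 8 and 7 are shown, the latter at coding position 655:
ACTG1 exon 5, chr17:81511050-81511079: accttcaactccatCatgaagtgtgacgtg
ACTG1 exon 4, chr17:81511257-81511286: ctctggagaagagcTacgagctgcccgatg
ACTG1 exon 4, chr17:81511320-81511349: agaagctgtgctacGtcgccctggacttcg
For comparison, the IgG control gave 3 ACTB sites with a score above 5 (9, 8 and 6) and 1 such ACTG1 site (6). The highest of them lay in the last ACTB codon before the stop codon:
ACTB exon 6, IgG site, chr7:5527737-5527766: ccaccgcaaatgctTctaggcggactatga

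ACTB was among the transcripts with the most PDCD4 cDNAs, and it stood further above its IgG level than ACTG1 did, on values that were known when the genes were chosen. The PDCD4 list held 1079 ACTB cDNAs (95% Poisson interval 1016 to 1145) at 292 sites, and the IgG list 179 (154 to 207) at 61 sites. As a share of each list this was 26.4 and 6.48 cDNAs per 10000, a log2 ratio of 2.02 (1.79 to 2.26) or 4.05-fold, with 1 cDNA added to each count. ACTB ranked 5 of 14416 genes by its PDCD4 cDNAs and 115 by its IgG cDNAs. The ratio itself was less unusual than the sum: 18.8% of the 9594 genes with at least 10 cDNAs over both lists had a log2 ratio above 1, 46.8% had one above 0, and 92.9% had a lower ratio than ACTB.

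ACTG1 had 316 PDCD4 cDNAs (282 to 353) at 109 sites and 131 IgG cDNAs (110 to 155) at 48 sites, or 7.72 and 4.74 per 10000. Its log2 ratio was 0.70 (0.40 to 1.01), or 1.62-fold, above that of 75.2% of genes. It ranked 100 by PDCD4 cDNAs and 243 by IgG cDNAs. The median log2 ratio of the 9594 genes was -0.08. RNA abundance was not analysed here, so more molecules of an mRNA and more PDCD4 on each molecule cannot be told apart.

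The actins also differed in how cDNAs were stacked on single positions. In ACTB 51 of 292 PDCD4 sites (17.5%, Wilson interval 13.5% to 22.2%) scored above 5, the threshold named in the study's methods, and 12 scored above 10. In ACTG1 6 of 109 (5.50%, 2.55% to 11.5%) scored above 5 and none above 10. Over all listed sites, 1.48% of PDCD4 sites and 0.69% of IgG sites scored above 5. Counted by gene, a PDCD4 site above 5 was held by 7.51% of genes with any listed site, and an IgG site above 5 by 4.18%. At the threshold, 20 ACTB sites scored exactly 5 and 18 scored 6, and in ACTG1 these counts were 5 and 1. ACTB sites scored 3.70 cDNAs on average with PDCD4 antibody and 2.93 with IgG, and ACTG1 sites 2.90 and 2.73. On sites above 5, the ACTB log2 ratio was 2.25 (1.71 to 2.98), relative to the cDNAs of each list above 5, among which 51.7% of 393 genes had a log2 ratio above 1. For ACTG1 the same value was 0.73 with a wide interval of -0.32 to 2.44, since it rested on 44 and 6 cDNAs.

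Levels of the 2 mRNAs were compared per length of mature transcript. ACTB had 587 PDCD4 cDNAs per 1000 nt and ACTG1 153, a log2 difference of 1.94 (1.75 to 2.13). In the IgG control the levels were closer, 91.1 and 64.6 per 1000 nt, with a log2 difference of 0.49 (0.15 to 0.84). The log2 difference with PDCD4 antibody exceeded that with IgG by 1.45 (1.06 to 1.83), as a description of values known when the genes were chosen. Within coding sequence alone, where both genes have the same length, this difference was 0.89 (0.38 to 1.41).

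**Figure D1:**
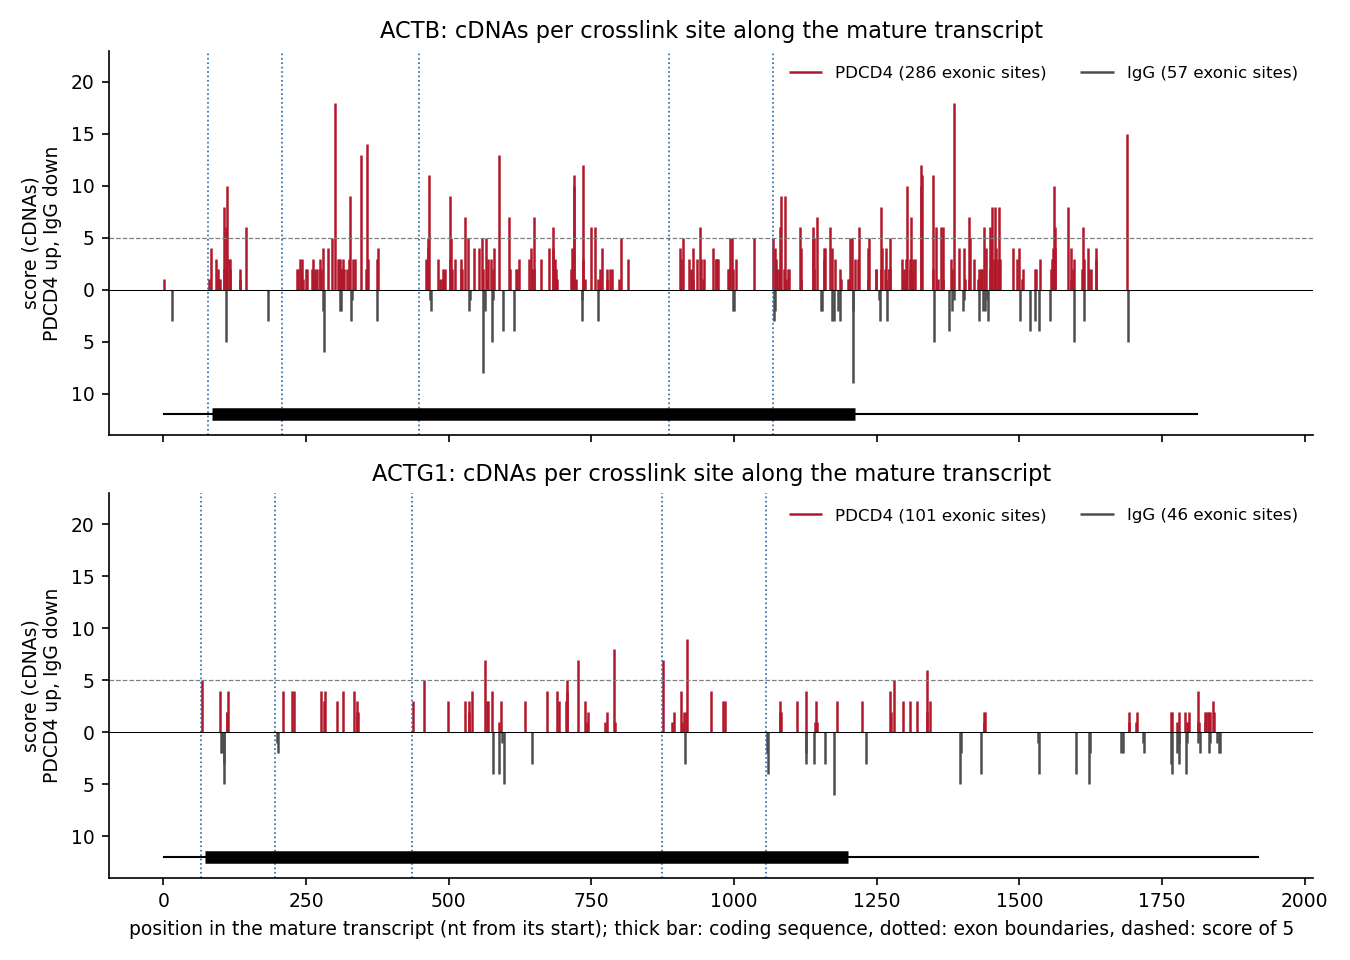
Crosslink sites along the mature ACTB (top) and ACTG1 (bottom) transcripts, with the position in nt on the x axis and the score of each site in cDNAs on the y axis, PDCD4 upwards and IgG downwards. ACTB is covered by PDCD4 sites up to a score of 18 from exon 2 to the late 3′UTR, whereas ACTG1 sites reach 9 and the PDCD4 list leaves 251 nt of its 3′UTR empty.

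The profile of sites along the transcripts showed that nearly all actin sites lay at exonic positions. Of the ACTB PDCD4 sites, 183 (62.7%, 57.0% to 68.0%) lay in coding sequence, 100 (34.2%, 29.0% to 39.9%) in the 3′UTR, 3 in the 5′UTR and 5 (1.71%) in introns. One site lay just outside the representative transcript. Introns make up 1642 nt of the ACTB gene but held 8.53 PDCD4 cDNAs per 1000 nt, while the coding sequence held 585 and the 3′UTR 662. ACTB introns also held 14 cDNAs with each antibody, a log2 ratio of -0.57 (-1.75 to 0.61) once the depth of the lists is taken into account. In ACTG1, 64 PDCD4 sites (58.7%, 49.3% to 67.5%) lay in coding sequence, 36 (33.0%, 24.9% to 42.3%) in the 3′UTR and 7 (6.42%) in introns, with 184, 111 and 19.8 cDNAs per 1000 nt. Per length, the 3′UTR of ACTB was thus covered at a level like its coding sequence, while that of ACTG1 was covered at a lower level than its coding sequence.

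The PDCD4 level lay above the IgG level in both regions of ACTB and in the coding sequence of ACTG1, and an excess was not detectable in the ACTG1 3′UTR. In ACTB the log2 ratio of PDCD4 to IgG was 2.16 (1.86 to 2.49) in coding sequence, from 660 and 99 cDNAs, and 2.07 (1.70 to 2.50) in the 3′UTR, from 397 and 63 cDNAs. In ACTG1 it was 1.26 (0.85 to 1.72) in coding sequence, from 208 and 58 cDNAs. In the ACTG1 3′UTR it was -0.29 (-0.78 to 0.20), from 80 PDCD4 and 66 IgG cDNAs. The difference between coding sequence and 3′UTR was 1.55 (0.92 to 2.18) in ACTG1 and 0.09 (-0.40 to 0.58) in ACTB, intervals that did not overlap. Over all representative transcripts, the coding sequence also had the higher ratio, 1.14 against 0.24 for 3′UTRs, a difference of 0.90 (0.87 to 0.93). The ACTB interval lay below this value, and the lower end of the ACTG1 interval was about equal to it. The region sums over all transcripts include the actins. Of the ACTG1 sites above 5, the coding sequence held 5 and the 3′UTR 1, while the ACTB counts were 28 and 23.

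**Figure D2:**
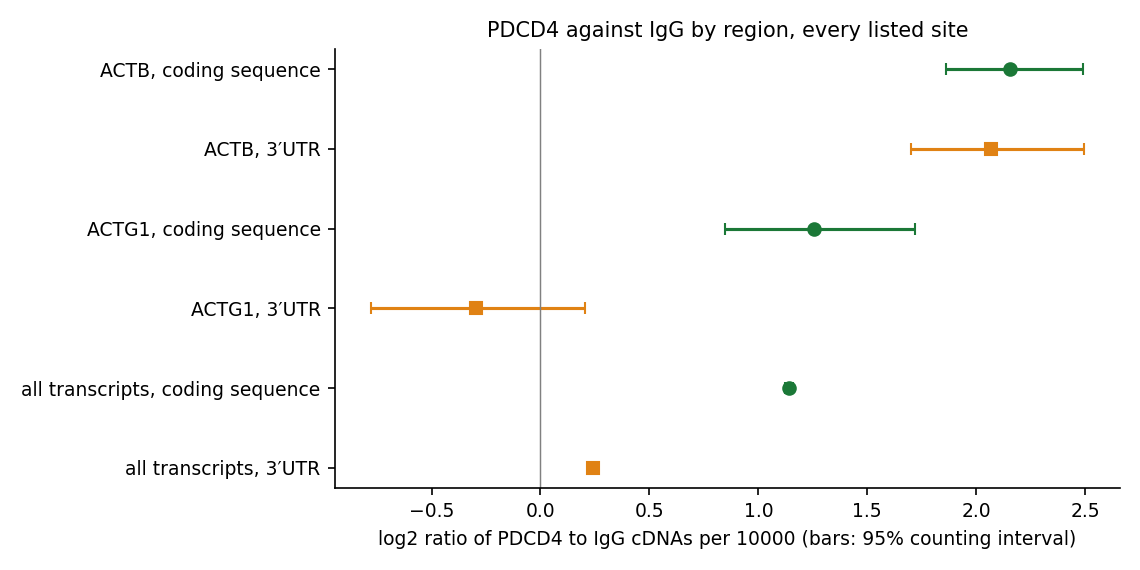
Log2 ratio of PDCD4 to IgG cDNAs per 10000 (x axis) in the coding sequence (circles) and 3′UTR (squares) of ACTB, ACTG1 and all representative transcripts together, with 95% counting intervals as bars. The ACTG1 3′UTR, at -0.29, is the value whose interval includes 0, and both ACTB regions lie above 2.

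Within the ACTG1 3′UTR the sites were not evenly placed. The first 240 nt after the stop codon held 39 PDCD4 cDNAs at 13 sites and 14 IgG cDNAs at 4 sites. The next 251 nt held no PDCD4 site, although the IgG list had 7 sites with 20 cDNAs there. The last 228 nt held 41 PDCD4 cDNAs at 23 sites, none of them scoring above 4, and 32 IgG cDNAs at 16 sites. The empty stretch was bounded by the PDCD4 sites themselves, so it is a description. The longest stretch without a PDCD4 site between ACTB sites was 91 nt, in exons 4 and 5.

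By exon, ACTB was covered from exon 2 onwards. Values per exon are raw cDNAs of lists of unequal depth, so PDCD4 and IgG values per exon are given side by side, and exons are compared within a list. In ACTB, PDCD4 cDNAs per 100 nt were 43.4 in exon 2, 60.4 in exon 3, 59.5 in exon 4, 42.9 in exon 5 and 70.2 in exon 6, the exon that holds the 3′UTR. Exon 1, which is 5′UTR, had a single PDCD4 cDNA over 78 nt, and the 66 nt of ACTG1 exon 1 had none in either list. The interval of exon 6 (64.3 to 76.4) overlapped those of exon 3 (51.0 to 71.1) and exon 4 (52.5 to 67.1), but not those of exon 2 (32.8 to 56.4) or exon 5 (33.9 to 53.5). All levels per exon, here and in ACTG1, use the full exon length. The last 60 nt of exons before an intron held almost no site in either list, as given below. They make up more of the short exons 2 (129 nt) and 5 (182 nt), and their part in the differences between exons was not tested.

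ACTG1 had its highest PDCD4 level in exons 4 and 5, with 21.6 and 20.9 cDNAs per 100 nt, followed by exon 3 with 17.1, exon 2 with 13.2 and exon 6 with 11.8. Exon 6 was thus the highest in ACTB and the lowest of the covered exons in ACTG1, where its interval (9.64 to 14.3) overlapped those of exons 2 and 3 but not that of exon 4 (17.5 to 26.5) or exon 5 (14.8 to 28.7). In the IgG list ACTG1 exons 6 and 2 were the highest, with 10.3 (8.28 to 12.7) and 9.30 (4.81 to 16.2) per 100 nt, and exons 3, 4 and 5 lay between 1.25 and 3.87. The ACTB IgG level was also highest in exon 6, with 12.6 per 100 nt.

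**Figure D3:**
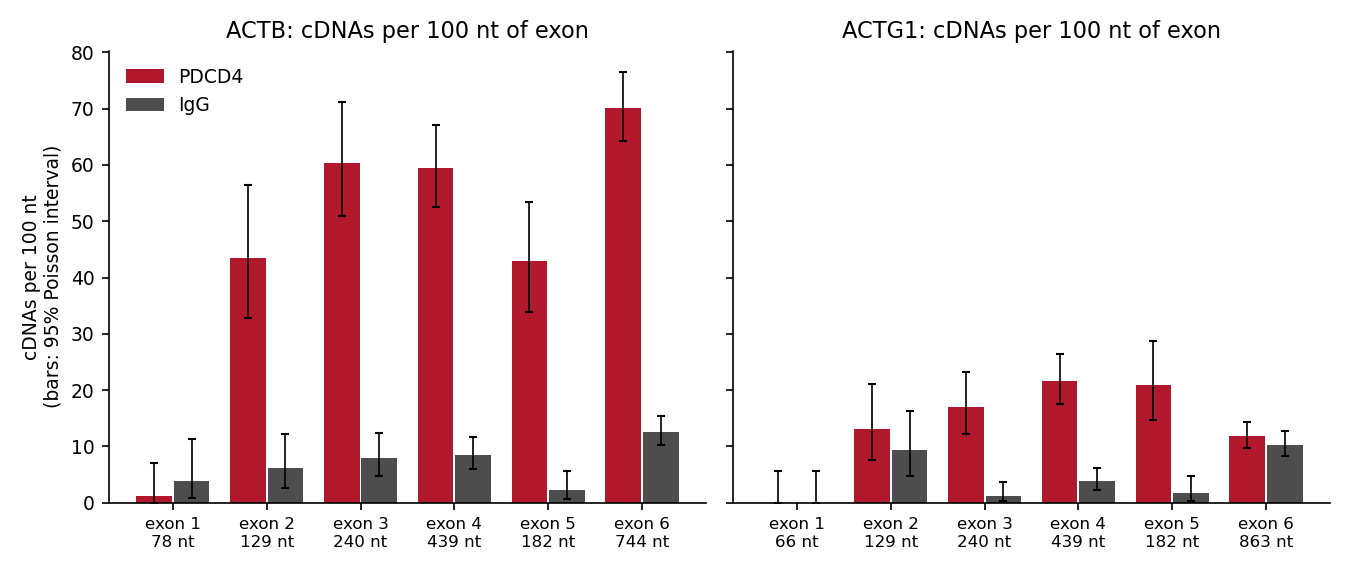
PDCD4 and IgG cDNAs per 100 nt (y axis) for each exon of ACTB (left) and ACTG1 (right), with 95% Poisson intervals as error bars and the exon length under each name. The values are raw cDNAs of lists of unequal depth, to be read within a list: with PDCD4 antibody exon 6 has the highest value in ACTB (70.2) and, after the empty exon 1, the lowest in ACTG1 (11.8). Full exon lengths are used, including exon ends that hold almost no site in either list, which lowers short exons most.

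Sites were placed at some distance from the 3′ ends of exons. In the last 60 nt of exons that precede an intron lay 1 of 286 exonic ACTB PDCD4 sites (0.350%), though 16.6% of exonic positions lie there. In ACTG1 it was 0 of 101, which at a floor of 3 counts allows a share of up to 2.97%, against 15.6% of positions. The IgG list gave 1 of 57 for ACTB and 0 of 46 for ACTG1. This holds for the lists in general: over all representative transcripts 2.12% of exonic PDCD4 sites and 2.20% of IgG sites lay in these windows, where an even spread over exons would place 17.8% and 15.9%. The lists therefore share this feature, which is not particular to PDCD4 or to actin. Likewise, the last 124 nt of the ACTB transcript and the last 78 nt of the ACTG1 transcript had no PDCD4 site, and the last 121 nt and 68 nt no IgG site.

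In the first 50 nt of every exon after the first, ACTB had 56 of 286 exonic PDCD4 sites (19.6%, 15.4% to 24.6%), against 13.8% of positions, and 5 of 57 IgG sites (8.77%, 3.81% to 18.9%). ACTG1 had 21 of 101 PDCD4 sites (20.8%, 14.02% to 29.7%), against 13.0% of positions, and 9 of 46 IgG sites (19.6%). For both genes the PDCD4 share was close to that over all representative transcripts, 18.8%, where an even spread gives 14.96%. These shares of positions count the exon ends too, where almost no site lay, and were not corrected for that. The PDCD4 and IgG intervals overlapped for both genes. A listed PDCD4 site lay on the base just before 4 exon or transcript starts. These were the base before the ACTB transcript (2 cDNAs) and before ACTB exon 6 (2 cDNAs), and the base before the ACTG1 transcript (5 cDNAs) and before ACTG1 exon 4 (1 cDNA). The IgG list had such a site before ACTG1 exon 6 (4 cDNAs). In iCLIP the crosslink is taken as the base before the first base of a cDNA.

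The coding sequences are identical at 1029 of 1128 positions (91.2%). Of 376 codons, 95 differ, 91 of them synonymously. Sites could therefore be compared at aligned positions. At 24 positions both genes had a PDCD4 site, which is 37.5% (26.7% to 49.7%) of the 64 ACTG1 coding sites and 13.1% of the 183 ACTB coding sites. ACTB sites occupied 16.2% of coding positions and ACTG1 sites 5.67%. Within 3 nt of an ACTB site lay 78.1% of the ACTG1 sites (66.6% to 86.5%), against 56.6% of all coding positions. The genes share base composition as well as reading frame. Exons 2 to 5 also have the same length in both genes, so the ends of these exons fall at the same coding positions. The last 60 nt of such exons held almost no site in either gene, yet they count among the coding positions above. The part of each of these features in the shares was not tested.

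At shared positions the scores of the genes differed in both directions. Coding position 636 had 11 cDNAs in ACTB and 4 in ACTG1, and position 635 had 10 and 5. At position 718 ACTG1 was higher, with 8 cDNAs against 5. These are small counts, and their differences were not tested. The 30 nt that follow position 636 recur in the other gene, so the division of its cDNAs between the genes is uncertain. The highest coding site of ACTB, at position 217 in codon 73 with 18 cDNAs, had no ACTG1 site within 3 nt, although only 2 of the 30 nt around it differ. The ACTG1 sequence there shows how closely both genes match, with the capital at the aligned base:
ACTG1 at coding position 217, chr17:81512034-81512063: agtaccccattgagCatggcatcgtcacca
Of the 5 highest coding sites of ACTG1, 4 had an ACTB site within 3 nt, and the exception was the site at the start of exon 5. None of the 24 positions scored above 5 in both genes.

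**Figure D4:**
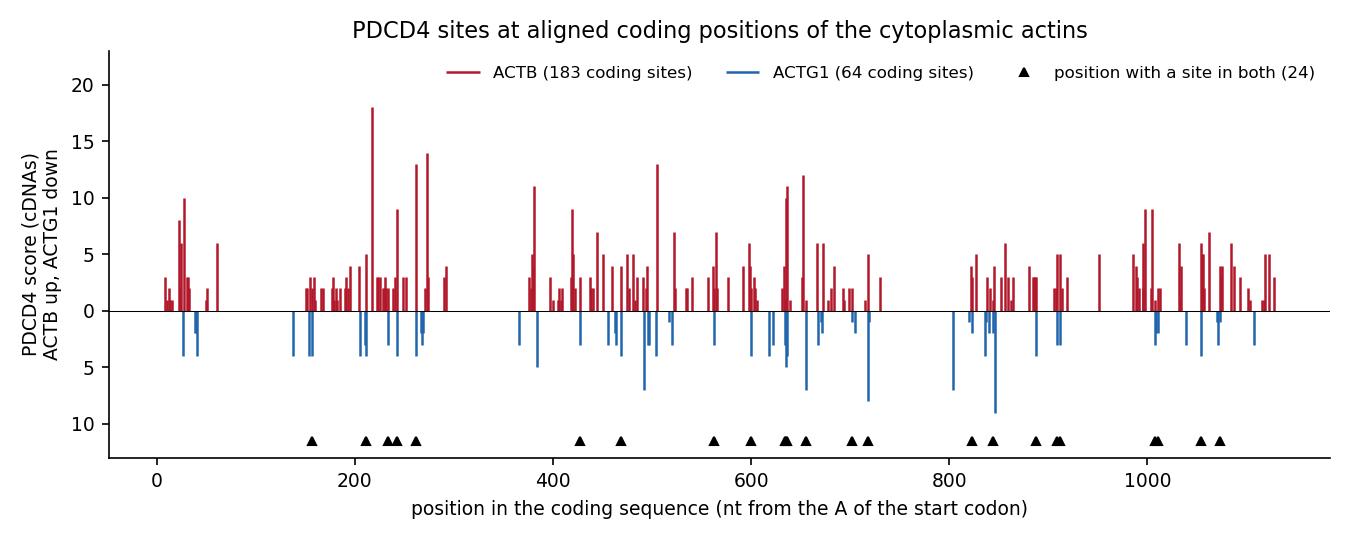
PDCD4 sites of ACTB (up) and ACTG1 (down) at aligned coding positions, with the position in nt from the start codon on the x axis and the score in cDNAs on the y axis. Triangles mark the 24 positions with a site in both genes, and the highest ACTB site, at position 217 with 18 cDNAs, has no ACTG1 counterpart.

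Base by base within codons, PDCD4 sites were least frequent on the middle base in both genes. In ACTB 77, 38 and 68 sites lay on the first, second and last base, so that the middle base held 20.8% (15.5% to 27.2%). In ACTG1 the counts were 27, 10 and 27, and the middle base held 15.6% (8.71% to 26.4%). The IgG counts were small, 10, 8 and 16 in ACTB and 9, 4 and 6 in ACTG1. The bases of each codon position also differ in composition, and the part of this in the pattern was not tested.

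Actin genes have many processed copies in the genome and a family of relatives, the POTE genes, that carry an actin-like part. The 30 nt that follow a site recurred exactly elsewhere in the genome for 129 of 286 exonic ACTB PDCD4 sites (45.1%, 39.4% to 50.9%), against 51.0% of ACTB positions, and for 40 of 101 ACTG1 sites (39.6%, 30.6% to 49.4%), against 31.2% of positions. Among genes named ACT or POTE, the most frequent copies of ACTB stretches were ACTBP2 (196 positions), POTEI (146) and POTEE (132), and 85 positions recurred in ACTG1. Copies outside any gene of these names were found for 489 ACTB positions and 356 ACTG1 positions. Annotated ACTB and ACTG1 pseudogenes had 0 PDCD4 sites, and 5 IgG cDNAs at 2 sites. This count does not cover the copies elsewhere. How reads with several matches were assigned is not given in the sources used here, so a site in recurring sequence is uncertain in its gene of origin. Without all such sites, ACTB remained above ACTG1 per length, with 632 and 129 PDCD4 cDNAs per 1000 nt of unique sequence, and log2 ratios to IgG were 1.82 for ACTB and 0.46 for ACTG1. Of the highest ACTB sites printed above, only the 3′UTR site with a score of 18 was followed by 30 nt that occur once. The 3 ACTG1 PDCD4 sites printed above were all followed by recurring sequence.

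The crosslinked base in ACTB was less often a T (U in the RNA) than in the lists as a whole, while the ACTG1 interval included the share of the whole PDCD4 list. T was the listed base of 28.1% of ACTB PDCD4 sites (23.2% to 33.5%) and of 37.6% of ACTG1 sites (29.1% to 47.0%), against 46.7% of every PDCD4 site and 51.6% of every IgG site. T makes up 23.3% and 23.7% of the mature transcripts. Among the 51 ACTB sites above 5, T was listed at 22 (43.1%, 30.5% to 56.7%). The IgG sites of the same genes gave 27.9% for ACTB and 43.8% for ACTG1, so the low ACTB share was seen with both antibodies. The base after the site was rarely G, in 8.56% of ACTB and 1.83% of ACTG1 PDCD4 sites, and in 3.77% of all PDCD4 sites, although G makes up 25.3% and 26.7% of the mature transcripts. The IgG list gave 3.55% over all sites, so this too was shared by the control.

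IgG and PDCD4 sites of the same gene lay near each other, and some lay at the same base. The methods of the study describe that IgG sites were subtracted before PDCD4 peaks were called. In ACTB 6 positions were listed in both files, which is 10.5% of 57 exonic IgG sites against 15.8% of exonic positions, while 31 (54.4%) lay within 1 nt and 50 (87.7%) within 3 nt of a PDCD4 site. The last 2 shares compare with 34.3% and 53.1% of exonic positions. In ACTG1 6 of 46 IgG sites (13.0%) were listed in both, against 5.26% of positions. Of the 46, 16 (34.8%) lay within 1 nt and 19 (41.3%) within 3 nt, against 12.9% and 23.7% of positions. The ACTB IgG site with a score of 8, in exon 4, was 1 of the shared positions, with a PDCD4 score of 2.

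The start of the ACTB 3′UTR, where the zipcode lies, held many PDCD4 sites, unlike the start of the ACTG1 3′UTR. The first 60 nt held 48 PDCD4 cDNAs at 15 sites, or 80.0 per 100 nt, against 64.6 over the rest. The IgG list had 7 cDNAs at 3 sites there, or 11.7 per 100 nt, against 10.4 over the rest. The rest counts the end of the transcript, where the last 124 nt held no PDCD4 site and the last 121 nt no IgG site. This lowers the values over the rest, which were not corrected for it, so an excess at the start is not shown. The first 60 nt of the ACTG1 3′UTR held 1 PDCD4 site with 3 cDNAs. The transcribed strand was searched for GGACT and ACACC with 10 to 25 nt between them. These are parts of the ACTB zipcode itself, bound by IGF2BP1, so a match in ACTB was fixed in advance. The first 60 nt of the ACTB 3′UTR held 1 match and those of the ACTG1 3′UTR none. The search covers this exact pair only. The match is printed because it is the best-known regulatory element of this mRNA, with the motif parts in capitals:
ACTB 3′UTR nucleotides 3 to 28, chr7:5527720-5527745: GGACTatgacttagttgcgttACACC
This stretch held 5 PDCD4 sites with 19 cDNAs, 1 of them above 5, and no IgG site. Of 18298 3′UTR starts of the same length, 17 (0.0929%) held this exact pair. IGF2BP1 itself had no site in either list.

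By their levels in both lists, the genes most like ACTB were MIRLET7BHG, a microRNA host transcript (1133 PDCD4 and 195 IgG cDNAs), LAMA5, a laminin chain (932 and 180), HSP90AA1, a chaperone (862 and 148), MYH9, the heavy chain of a non-muscle myosin (930 and 236), and AHNAK, a large scaffold protein (1013 and 273). Their distance to ACTB, over the log2 cDNAs per 10000 of the 2 lists, was 0.14 to 0.61. Nearest to ACTG1 were MT-RNR1, ITPK1, FAT1, MACF1 and AKT1, at distances of 0.15 to 0.22. These levels are per gene and not per length, so likeness here is in the number of cDNAs.

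Genes that build, fold and turn over actin filaments did not stand above IgG as a group. Of 79 such genes, 69 had a listed site and 62 had at least 10 cDNAs over both lists. Their median log2 ratio was -0.22, against -0.08 over all 9594 genes, and 10 of 62 (16.1%) had a log2 ratio above 1, against 18.8% of all genes. A log2 ratio below -1 was found for 9 of 62, against 18.1% of all genes. These shares are near the background, and both cytoplasmic actins lay above the median of the list.

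Among proteins that bind actin monomers, PFN1 (profilin, which feeds monomers to growing filament ends) had the highest ratio of the list's genes with at least 50 cDNAs, 2.74 (2.19 to 3.44), from 256 PDCD4 and 25 IgG cDNAs. It was also the gene of the list with the most PDCD4 cDNAs. The 7 other counted genes of this role were spread from -2.15 to 0.64, with 3 of them below -1, against 18.1% of all genes. Among genes that fold and mature actin, 4 of 9 had a log2 ratio above 1, against 18.8% of all genes, and the median was 0.87. One of the 4, CCT5, had no IgG cDNA, so its ratio rests on the added cDNA, and no test of a role was run. TCP1, a subunit of the TRiC chaperonin that folds newly made actin, had 58 PDCD4 and 9 IgG cDNAs, a log2 ratio of 1.99 (1.10 to 3.32).

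Among the nucleators and their partners, none of 9 Arp2/3 complex genes had a log2 ratio above 1, against 18.8% of all genes, their median was -0.44, and ACTR3, an actin-related subunit of the complex, had 42 PDCD4 and 65 IgG cDNAs, a log2 ratio of -1.19 (-1.79 to -0.62). Of 11 nucleation and elongation genes none was above 1 and 3 were below -1, against 18.1% of all genes. A log2 ratio above 0 was found for 3 of the 11, against 46.8% of all genes. ENAH, which promotes filament elongation, had 229 PDCD4 and 215 IgG cDNAs (log2 ratio -0.48), and the formins DIAPH1 and FMNL2 had -0.14 and -0.35. CAPZA1, a subunit of the protein that caps filament ends, had 195 and 70 cDNAs and a log2 ratio of 0.90 (0.51 to 1.33). PLS3, which bundles filaments, had 25 and 37 cDNAs (-1.12). It was the 1 gene below -1 of 10 counted bundling and membrane linkage genes, against 18.1% of all genes. In that role 2 genes were above 1, against 18.8% of all genes, and the median was -0.34.

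Of the 3 genes of transcription controlled by the actin monomer pool, 1 had a log2 ratio above 1 and 1 below -1. SRF had 45 PDCD4 and 6 IgG cDNAs, a log2 ratio of 2.15 (1.11 to 3.86), and its coactivator MRTFB (MKL2 in the files) had 30 and 58, a log2 ratio of -1.50 (-2.21 to -0.86). MRTFA (MKL1 in the files), the other coactivator, had 135 and 100 cDNAs and a log2 ratio of -0.14 (-0.52 to 0.25); it is named outside the rule, after its values were seen, to complete the role. Of the 9 other genes of the list that encode actins or close relatives, ACTA2 had 3 cDNAs in each list and the rest had no site.

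**Figure D5:**
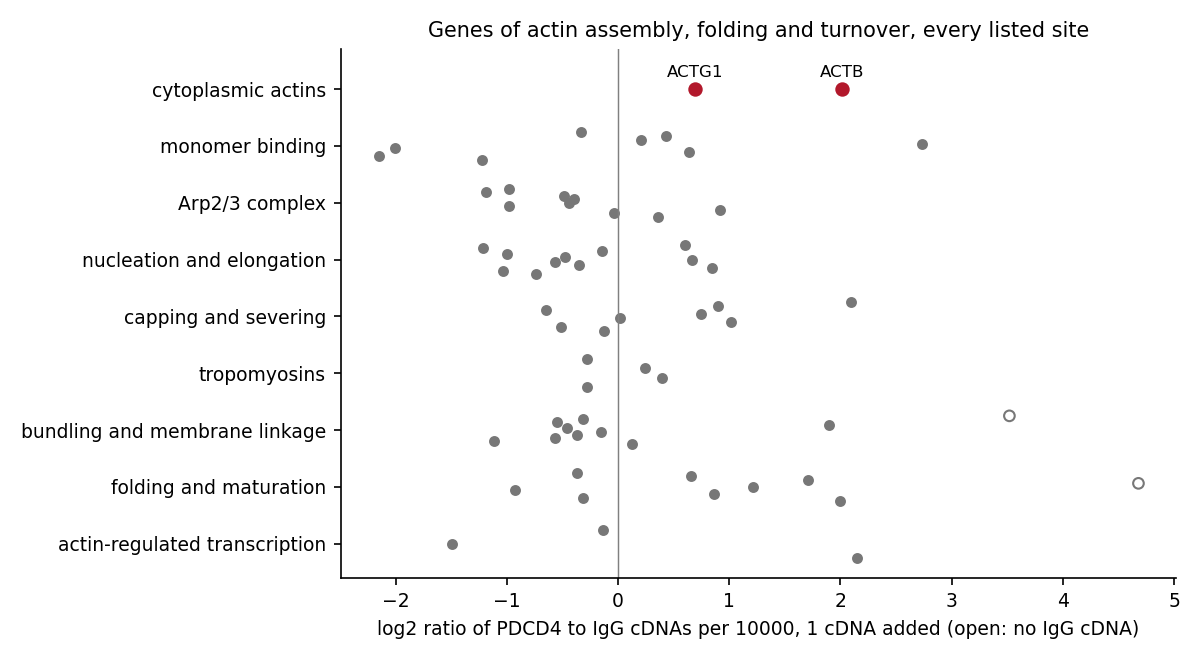
Log2 ratio of PDCD4 to IgG cDNAs per 10000, with 1 cDNA added (x axis), for ACTB and ACTG1 and for the 62 genes of actin biology with at least 10 cDNAs over both lists, grouped by role (y axis). Open circles are the 2 genes without an IgG cDNA, whose position depends on the added cDNA, and the genes lie on both sides of 0 around a median of -0.22.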

How the data were processed

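Per the methods of the study, reads were processed with iCount against the Ensembl genome (release 88) and crosslink sites were called at a false discovery rate of 5%. The authors deposited 1 list of sites for each antibody, with 2 replicates pooled, and the deposited score counts cDNAs at a 1-nt site: these are raw counts without normalization. Settings for mapping and for reads with several matches are not given in the sources used here. The methods describe subtraction of IgG sites and a filter on scores above 5. The deposited PDCD4 list holds scores of 1, so the filter is not seen in it. Some positions stand in both lists, so subtraction was not complete. Whether it was made in part cannot be told from the lists, and its effect on PDCD4 sums was not tested.

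Sites were placed on 1 representative transcript (MANE Select) per gene of GENCODE release 44, a later release on the same build (GRCh38), and no site lay beyond a chromosome end. Scores were summed by gene and divided by the list total, as cDNAs per 10000, and log2 ratios had 1 cDNA added to each sum. Ratios have exact conditional 95% intervals, sums exact Poisson and shares Wilson intervals, and differences of log2 ratios have normal intervals from their counts. Cross-gene background was all genes with at least 10 cDNAs over both lists. Recurring sequence was an exact match of the 30 nt that follow a site on either strand of chromosomes 1 to 22, X, Y and M. The named genes of the actin list were the 5 with the largest PDCD4 sums, the 3 largest and 3 smallest log2 ratios at 50 or more cDNAs, and other actins with a site. The genes nearest to each actin were the 5 with the smallest Euclidean distance of log2 levels in the 2 lists. Sites shown were chosen from the 5 highest of each gene, the IgG sites above 5, and the aligned positions. Some sites that these rules name are not reported here. CCT5 and CORO1B, without an IgG cDNA, enter the list median with the added cDNA, and at a floor of 3 IgG cDNAs the median was again -0.22.

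Members and lists were chosen with earlier results of these data known. Alternatives were the score threshold, sites in place of scores, the added count, totals without mitochondrial sites, multi-gene labels, recurring sequence, the transcript model, window lengths and the base read. Ratios, intervals and the sequence search were tested on simulated data or known loci. Tools were matplotlib 3.10.9, scipy 1.17.1, pandas 2.3.3 and numpy 2.4.6 under Python 3.11.15. RNA-seq, polysome and protein data were not analysed here.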

Additional observations from a re-analysis of the deposited data

How the results depend on the processing

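No paired analysis was possible because each list pools its replicates, and for the same reason none was left out. Of 56 alternative values for 19 results, 32 stayed within the interval of the main value or, for counts, within 1.5 times of it. The other 24 moved beyond it, and 0 were counted as reversed. Among those that moved, the ACTB difference between coding sequence and 3′UTR went from 0.09 to -0.40 without recurring sequence. The main interval of this difference included 0, and its change of sign was not counted as a reversal. Differences between coding sequence and 3′UTR were looked at after seeing the data, and so were their alternatives. Depth limits ACTG1 most: above a score of 5 its shares rest on 6 sites, and above 10 no ACTG1 site is left.

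The ACTB log2 ratio of PDCD4 to IgG was 1.73 on the number of sites and 1.60 on scores above 10, where the IgG list had no ACTB site, so that this last value depends on the added cDNA. On scores above 5, the coding sequence held 54.9% of ACTB and 83.3% of ACTG1 sites, and the 3′UTR 45.1% and 16.7%. The share in the first nt of exons after an intron was 8.74% (ACTB) and 8.91% (ACTG1) with 25 nt, 36.0% and 32.7% with 100 nt, which follow from the window length, and 33.3% in ACTG1 above a score of 5. In the last 60 nt of exons 0 of 51 ACTB sites above 5 remained, which is 0%. Recurring sequence of 40 nt followed 25.2% of ACTB and 25.7% of ACTG1 sites. T was 34.9% of ACTB bases 1 nt after the site, and 43.1% (ACTB) and 50% (ACTG1) of sites above 5. The log2 ratio of ACTB to ACTG1 per 1000 nt was 3.41 above a score of 5, 1.58 on sites, 1.67 on coding sequence and 2.29 without recurring sequence. No aligned position was shared above a score of 5 (0%). Of the actin list, 2 of 5 counted genes were above 1 on scores above 5, against 51.7% of 393 genes, with a list median of -1.96. Without recurring sequence, the ACTB difference between coding sequence and 3′UTR was -0.40, against 0.09, and that of ACTG1 was 1.88, against 1.55. Other causes were not tested.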

Other observations

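Of the keratins among the cell type markers, KRT7 had 808 PDCD4 cDNAs at 239 sites and 267 IgG cDNAs at 87 sites, and KRT5 had 352 at 105 sites and 74 at 30 sites. Keratins form the intermediate filaments of epithelial cells, which run beside the actin network. KRT17 had 37 PDCD4 and 18 IgG cDNAs and KRT18 had 27 and 10. ITGB4, an integrin chain that ties keratin filaments to the basement membrane, had 439 and 118. The cadherins CDH1 and CDH3, which link to actin at cell junctions, had 67 and 59, and 58 and 45 cDNAs. These genes were chosen as cell type markers, and their values are given without a test. All are raw sums from lists of unequal depth, 409308 cDNAs with PDCD4 antibody and 276139 with IgG. A higher raw PDCD4 sum is thus not by itself a higher share of the list.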
